A study of Mus musculus with 6 samples.

Results

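The genes described are Wnt5a, Fzd1, Fzd2, Fzd7, Lrp5, Lrp6, Dkk2, Dkk3, Sfrp1 and Axin2, which are 10 of the 55401 genes in the expression table and were found there by symbol. They cover a Wnt ligand, its receptors and co-receptors, secreted antagonists and a transcriptional target. The names were picked from results of the comparison of MU with WT, so the differences of these 10 genes between the groups are given as a description, without a p-value, also where a member is said to pass or miss the threshold of the fit across all genes. The samples are 6 poly(A) RNA libraries of NIH-3T3, an established mouse line of embryonic fibroblast origin kept in medium with serum: 3 of the parental line with genotype WT and 3 of the derivative NIH-3T3-MU with genotype Mutation, with no treatment other than culture. Which gene is mutated, and whether NIH-3T3-MU is a single clone, is not said in the labels, and with 1 derivative the mutation and other differences between the cell populations cannot be told apart. The published title of the study concerns mitochondrial translation infidelity.

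Wnt proteins are lipid-modified secreted ligands that bind the cysteine-rich domain of Frizzled receptors. Together with the co-receptors Lrp5 and Lrp6, Frizzled receptors stop the destruction complex from degrading beta-catenin, which then works with TCF/LEF factors on target genes, while other branches act through Ror and planar cell polarity proteins without beta-catenin. Dickkopf (Dkk) proteins such as Dkk2 act on the co-receptors, and secreted Frizzled-related proteins (Sfrp) bind Wnts themselves. Fibroblasts are a common source of both families in connective tissue.

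Values are TPM, reads per transcript length scaled to a fixed total per library, so levels can be set against each other between genes. Sequencing depth is not known from TPM, and in bulk RNA fewer expressing cells and less RNA per cell cannot be told apart. Of the 10 genes, 9 passed the filter of at least 1 TPM in at least 3 libraries. Dkk2, Dkk3 and Sfrp1 passed it through the WT libraries alone, so for them a difference was built into passing, and Axin2 did not pass. In the fit across all 14209 genes, 6 of the 9 were lower in MU at an adjusted p under 0.05 (limma) and 0 were higher. Among all tested genes 11.6% were called lower and 7.12% higher, and nothing is read from the members' count since this comparison chose them. Over all genes the split of 1012 higher to 1655 lower calls moved with the scaling, to 1165 and 1230 with mtDNA-encoded genes taken out of TPM, 1278 and 1367 with median-of-ratios scaling, and 1262 and 1322 with quantile normalization. The 6 were Wnt5a, Fzd1, Lrp5, Dkk2, Dkk3 and Sfrp1. Values of the groups did not overlap for these 6, where 23% of all genes were lower without overlap, and for Lrp6, where 16.1% were higher without overlap. The median log2 difference of the 8 members that have one was −0.67, beside −0.05 over all tested genes. Nothing is read from this median or from the overlaps either, since the same comparison chose the members.

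The libraries were those of fibroblasts by their markers. All 10 fibroblast markers reached 1 TPM in at least 1 library, with a summed level of 8556 to 9842 TPM in WT and 11126 to 11633 TPM in MU. Lum, a fibroblast proteoglycan named after its values were seen, went against that sum, at 1.68, 0.812 and 1.07 TPM in WT and 0, 0.162 and 0.0311 TPM in MU. Of markers of other cell types, 1 of 7 for epithelium, 3 of 8 for leukocytes and endothelium, 1 of 6 for striated muscle and 0 of 4 for adipocytes reached 1 TPM. Their summed levels were 0.790 to 1.54 TPM in WT and 1.60 to 2.31 TPM in MU for epithelium, 5.86 to 8.41 and 10.2 to 11.8 TPM for leukocytes and endothelium, 1.25 to 3.53 and 4.46 to 5.39 TPM for muscle, and 0.316 to 0.470 and 0.0556 to 0.218 TPM for adipocytes. The endothelial cadherin Cdh5, also named after its values were seen, went against its sum, at 1.33, 2.82 and 1.32 TPM in WT and 0.0919 to 0.114 TPM in MU. Cldn4, Myod1, Myog, Myh6, Actc1 and Lep were listed at 0 in all 6 libraries. The WT libraries differed in how levels depended on GC content. Across genes, GC content was correlated with a library's deviation from the mean of all 6 libraries. The Spearman correlation was 0.33 for WT replicate 2 and −0.25 for WT replicate 3, and −0.12 to 0.17 for the other libraries. The part of the marker differences in the results was not tested. With a correction for GC content and length, 1549 genes were called higher in place of 1012 and Lrp6 passed as higher, at a log2 difference of 0.25.

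**Figure D1:**
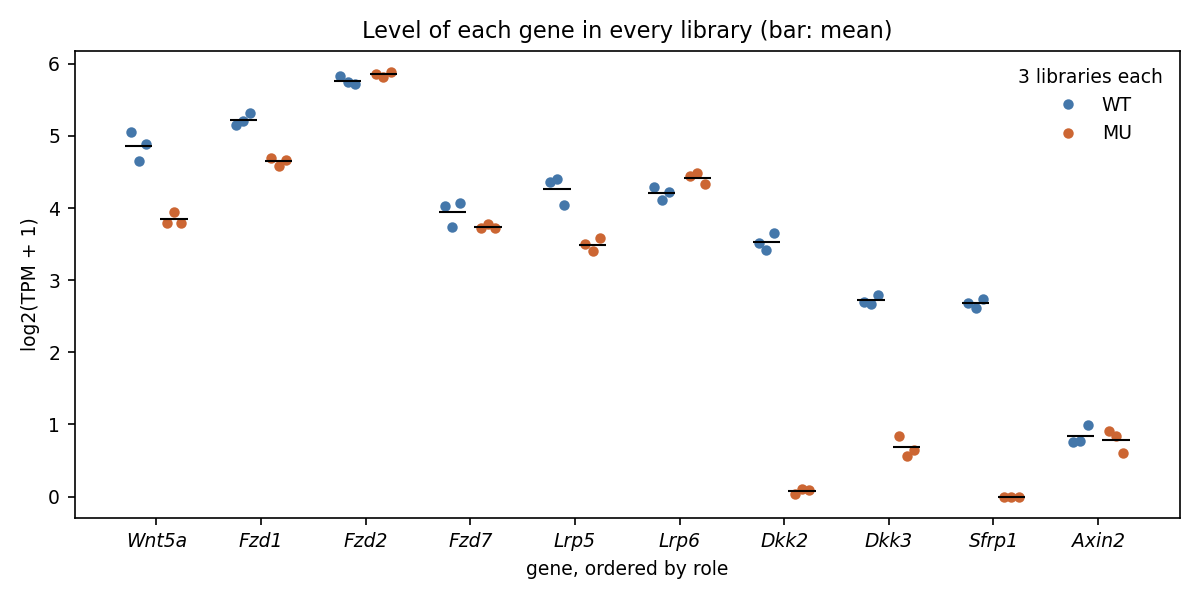
Level of the 10 genes in every library as log2(TPM + 1), with 3 WT and 3 MU libraries per gene and a bar at each group's mean. Dkk2 and Sfrp1 stood near 0 in MU, and Fzd2 lay at the top in both groups. Axin2 lay below 1 on this scale in both groups, and Dkk3 overlapped it in MU.

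Wnt5a, a ligand best known for signalling without beta-catenin, was the main Wnt mRNA in both groups. It lies on chromosome 14, 28504750 to 28527448 (GRCm38, + strand, ENSMUSG00000021994.15). Its level was 32.1, 24.1 and 28.7 TPM in the WT libraries and 12.8, 14.5 and 12.8 TPM in the MU libraries. Each MU library was below each WT library, with WT replicate 2 the lowest of its group. The mean fell from 28.3 ± 4.00 to 13.4 ± 0.955 TPM (SD, n = 3), a log2 difference of −1.02 (SE 0.13) on the log2(TPM + 1) scale. An antisense transcript, Gm2670, overlaps Wnt5a. It stood at 1.42, 0.891 and 0.999 TPM in WT and 0.324, 0.475 and 0.309 TPM in MU, and as no source here states whether counting used strand, reads of the pair may not be fully separated.

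The other 18 Wnt genes added little. None was tested, as 16 of them stayed below 1 TPM in every library and the highest value of any was 1.79 TPM, for Wnt10b in MU replicate 2. Wnt10b, named for this value after it was seen, was at 0.152, 0.0852 and 0.264 TPM in WT and 0.823, 1.79 and 0.934 TPM in MU. Wnt9a had the highest mean of the 18 over all 6 libraries though not within MU, at 0.643 ± 0.0871 TPM in the WT and 0.980 ± 0.194 TPM in the MU libraries (SD, n = 3). The share of Wnt5a in the summed TPM of all 19 Wnt genes was 92.8% to 95.7% in WT and 78.6% to 80.1% in MU. The sum itself went from 30.1 ± 3.88 to 16.8 ± 1.13 TPM.

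Among the Frizzled genes, Fzd2 and Fzd1 were the highest and Fzd7 followed. All 3 are Frizzled genes of a single exon: the annotated exon bases equal the gene's span, 4197 bases for Fzd1, 3663 for Fzd2 and 4532 for Fzd7. Fzd1 (chromosome 5, 4753839 to 4758035, − strand, ENSMUSG00000044674.6) was at 34.6, 35.9 and 38.7 TPM in WT and 25.0, 23.1 and 24.3 TPM in MU. The groups lay apart, and the mean fell from 36.4 ± 2.11 to 24.1 ± 0.967 TPM, a log2 difference of −0.57 (SE 0.09). Fzd2 (chromosome 11, 102604396 to 102608058, + strand, ENSMUSG00000050288.6) was at 56.0, 52.6 and 51.5 TPM in WT and 57.0, 55.4 and 58.2 TPM in MU. WT replicate 1 lay inside the MU range, and the log2 difference was 0.09 (SE 0.08). Fzd7 (chromosome 1, 59482424 to 59486955, + strand, ENSMUSG00000041075.8) was at 15.3, 12.3 and 15.8 TPM in WT and 12.2, 12.7 and 12.2 TPM in MU. WT replicate 2 fell within the MU values, and the log2 difference was −0.20 (SE 0.12).

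The make-up of the Frizzled family shifted while its 3 main genes kept their joint share. Over all 10 Frizzled genes, Fzd1, Fzd2 and Fzd7 together made up 86.9% to 87.4% of TPM in WT and 85.9% to 87.5% in MU. Within this sum Fzd2 went from 44.6% ± 2.08 to 52.8% ± 0.145, and Fzd1 from 30.4% ± 1.75 to 22.4% ± 0.699 (SD, n = 3). Both shares were apart between the groups, and that of Fzd7 overlapped (10.7% to 12.9% in WT, 11.1% to 12.1% in MU). The summed Frizzled level was 115 to 122 TPM in WT and 105 to 110 TPM in MU. These sums did not overlap as deposited. Nor did they with median-of-ratios scaling, at 115 to 118 in WT and 107 to 112 in MU. They did overlap when TPM was rescaled without mtDNA-encoded genes, at 126 to 139 in WT and 124 to 128 in MU.

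Of the co-receptors, Lrp5 fell and Lrp6 did not. Both are large single-pass receptors that bind Wnt and Dkk proteins and dock Axin when phosphorylated. Lrp5 (chromosome 19, 3584828 to 3686564, − strand, ENSMUSG00000024913.16) was at 19.6, 20.2 and 15.5 TPM in WT and 10.3, 9.63 and 11.0 TPM in MU. WT replicate 3 was the lowest of its group and still above every MU library. The mean fell from 18.4 ± 2.57 to 10.3 ± 0.661 TPM, a log2 difference of −0.77 (SE 0.13). Without MU replicate 2 that difference was −0.73 and missed the threshold. Lrp6 (chromosome 6, 134446476 to 134566965, − strand, ENSMUSG00000030201.15) was at 18.6, 16.3 and 17.6 TPM in WT and 20.9, 21.3 and 19.1 TPM in MU. The MU libraries all lay above the WT libraries, by a small margin for MU replicate 3, with a log2 difference of 0.21 (SE 0.10) that did not pass.

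The pair was close to even in WT and weighted to Lrp6 in MU. Lrp5 made up 51.3%, 55.4% and 46.7% of the summed TPM of both genes in the WT libraries and 33.0%, 31.1% and 36.4% in the MU libraries. The sum was 38.2, 36.4 and 33.1 TPM in WT and 31.2, 31.0 and 30.1 TPM in MU. The MU sums were below all WT sums as deposited, with mtDNA-encoded genes taken out of TPM, and with median-of-ratios scaling. With the last, the margin was very small: the lowest WT sum was 32.0 and the highest MU sum 31.9. Both genes were chosen on this comparison, so these sums are a description.

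The widest differences were in members of the secreted antagonist families. Dkk2 (chromosome 3, 132085292 to 132180304, + strand, ENSMUSG00000028031.6), which binds Lrp5 and Lrp6 and can dampen or promote signalling depending on the cell, was at 10.4, 9.74 and 11.6 TPM in WT. In MU it was at 0.0219, 0.0709 and 0.0646 TPM. The MU mean was 0.495% of the WT mean, and the log2 difference of −3.46 (SE 0.15) understates this because 1 is added to TPM: it was −6.14 with 0.1 added and −1.62 with 5 added. Dkk3 (chromosome 7, 112116017 to 112159057, − strand, ENSMUSG00000030772.6), the divergent member of the Dickkopf family, was at 5.50, 5.40 and 5.95 TPM in WT and 0.798, 0.482 and 0.572 TPM in MU. Its MU mean was 11.0% of its WT mean, with a log2 difference of −2.04 (SE 0.16), or −3.02 with 0.1 and −0.92 with 5 added to TPM. Sfrp1 (chromosome 8, 23411502 to 23449632, + strand, ENSMUSG00000031548.7), which carries a Frizzled-like domain that binds Wnts, was at 5.45, 5.12 and 5.69 TPM across the WT libraries, and each of the 3 MU libraries lists it at 0. No fold is given for Sfrp1, since a 0 in a table without counts can be a failed estimate.

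Within 10 secreted antagonist genes, these 3 made up most of the summed mRNA in WT and little of it in MU. Summed over Dkk1 to Dkk4, Sfrp1, Sfrp2, Sfrp4, Sfrp5, Frzb and Wif1, the level was 29.2, 22.3 and 26.8 TPM in WT and 4.45, 8.20 and 3.85 TPM in MU. Dkk2, Dkk3 and Sfrp1 held 73.1%, 90.7% and 86.8% of that sum in WT and 18.4%, 6.74% and 16.6% in MU. Most of the rest was Sfrp2, named for this after its values were seen. Sfrp2 was at 7.71, 1.93 and 3.31 TPM in WT and 3.09, 7.19 and 3.13 TPM in MU. WT replicate 1 and MU replicate 2 were far above their groups, and Sfrp2 did not pass (limma adjusted p = 0.894). The sum leaves out other antagonists: Kremen1, at means of 10.7 TPM in WT and 14.9 TPM in MU, Apcdd1 and Trabd2b. The last 2, named after their values were seen, had means of 11.8 and 3.10 TPM in WT and 12.5 and 2.76 TPM in MU. The shares therefore do not describe all antagonist mRNA.

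**Figure D2:**
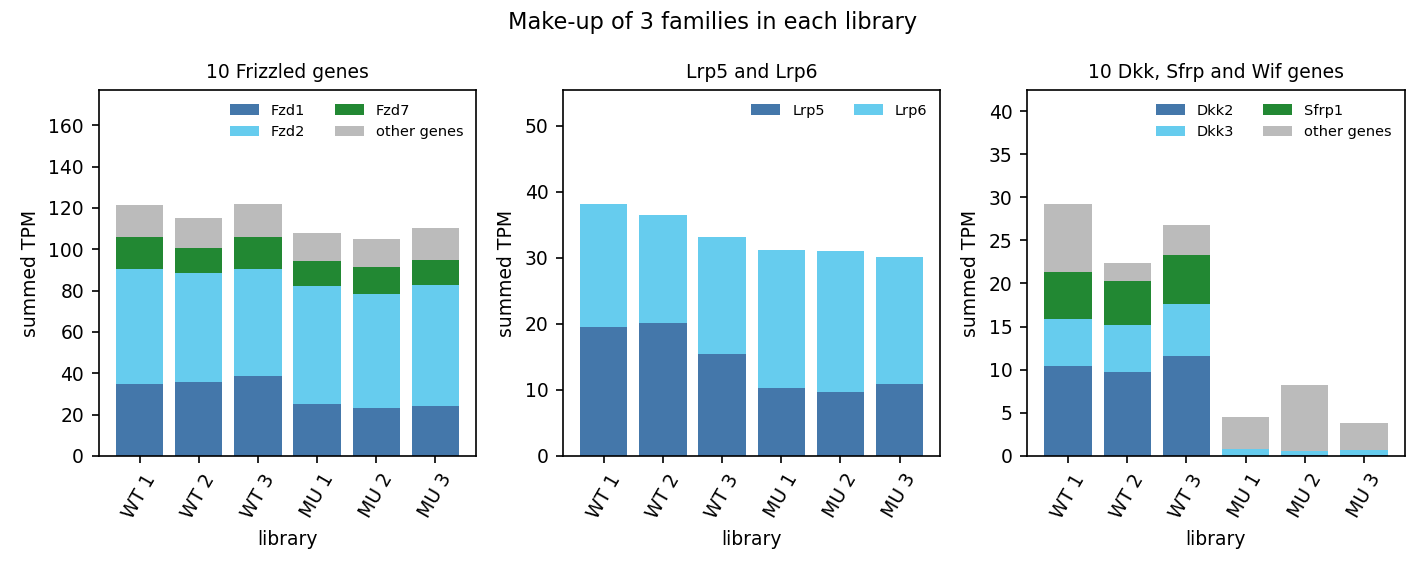
Summed TPM of the 10 Frizzled genes, of Lrp5 with Lrp6, and of 10 secreted antagonist genes in each of the 6 libraries, stacked by gene. The antagonist sum was 22.3 to 29.2 TPM in WT and 3.85 to 8.20 TPM in MU, and Lrp5 took 31.1% to 36.4% of the co-receptor sum in MU against 46.7% to 55.4% in WT.

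Axin2, a scaffold of the destruction complex and a widely used reporter of beta-catenin activity, was low in both groups. It lies on chromosome 11, 108920349 to 108950783 (+ strand, ENSMUSG00000000142.15). Its level was 0.685, 0.703 and 0.990 TPM in WT and 0.883, 0.791 and 0.518 TPM in MU. The groups overlapped, with the highest library in WT and the lowest in MU, and the means were 0.793 ± 0.171 and 0.731 ± 0.190 TPM (SD, n = 3).

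The order of the 10 genes by level differed between the groups. In WT it was Fzd2, Fzd1, Wnt5a, Lrp5, Lrp6, Fzd7, Dkk2, Dkk3, Sfrp1 and Axin2, and neighbours in this order overlapped only for Lrp5 with Lrp6 and Dkk3 with Sfrp1. In MU it was Fzd2, Fzd1, Lrp6, Wnt5a, Fzd7, Lrp5, Axin2, Dkk3, Dkk2 and Sfrp1, and only Axin2 with Dkk3 overlapped. Among the 6 genes above 10 TPM in both groups, the spread between libraries (SD as a percent of the mean) was 4.38% to 14.1% in WT and 2.28% to 7.14% in MU, smaller in MU for each of the 6. No such spread is given here for all genes, so it is not read as particular to these 6.

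RefSeq promoter windows (GRCm38.p6, 250 bases before to 50 after the annotated start) matched 4 of the 10 genes, Dkk2, Fzd1, Fzd7 and Axin2. Those of Dkk2 and Fzd1 are shown because both genes were lower in MU, and that of Axin2 because it is the usual reporter of TCF/LEF activity. Capitals mark the TATA box letters TATAAA. The windows are chr3:132085042-132085341 on the + strand for Dkk2, chr5:4758167-4758466 on the − strand for Fzd1 and chr11:108920099-108920398 on the + strand for Axin2, all written 5′ to 3′.
Dkk2: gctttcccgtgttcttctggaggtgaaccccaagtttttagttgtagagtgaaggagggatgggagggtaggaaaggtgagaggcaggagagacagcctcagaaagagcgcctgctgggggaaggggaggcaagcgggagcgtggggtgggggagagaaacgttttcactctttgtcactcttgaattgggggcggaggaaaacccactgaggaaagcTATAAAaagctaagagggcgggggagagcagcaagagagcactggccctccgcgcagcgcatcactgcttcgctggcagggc
Fzd1: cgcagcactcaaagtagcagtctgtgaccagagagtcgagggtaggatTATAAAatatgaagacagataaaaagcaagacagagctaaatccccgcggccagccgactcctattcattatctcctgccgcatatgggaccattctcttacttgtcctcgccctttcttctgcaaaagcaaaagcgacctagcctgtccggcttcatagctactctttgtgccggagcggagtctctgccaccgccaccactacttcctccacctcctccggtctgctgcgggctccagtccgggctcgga
Axin2: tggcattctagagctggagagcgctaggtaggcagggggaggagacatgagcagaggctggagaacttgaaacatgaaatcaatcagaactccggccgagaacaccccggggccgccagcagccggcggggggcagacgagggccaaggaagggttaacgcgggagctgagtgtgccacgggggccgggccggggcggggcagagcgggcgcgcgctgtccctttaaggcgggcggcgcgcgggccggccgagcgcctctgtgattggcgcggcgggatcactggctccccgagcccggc

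TATAAA was searched on both strands and is held by 13.6% of the 32851 promoter windows in the table. Dkk2 has it once, starting 32 bases before the RefSeq start, and Fzd1 once, starting 202 bases before it. The RefSeq start equals the gene start given above for Dkk2 and Axin2, but lies 181 bases upstream of it for Fzd1 and 277 bases upstream for Fzd7. Axin2 and Fzd7 hold no match in these windows. The TCF/LEF core was searched on both strands as CTTTGAA or CTTTGAT or CTTTGTA or CTTTGTT, which do not overlap TATAAA and which 16.9% of windows hold. Of the 4 windows only that of Fzd7, whose level overlapped between the groups, has a match, AACAAAG read on the given strand and starting 130 bases before the RefSeq start. The windows of Axin2, Fzd7, Fzd1 and Dkk2 hold 31, 24, 16 and 11 CpG dinucleotides, where the median window holds 7. These matches are descriptions of letters in a short window.

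Neighbouring genes were compared to show whether genes nearby moved in the same direction. For each member, up to 20 tested protein-coding genes on each side were taken. The median log2 difference of these neighbours was −0.36 around Fzd1, −0.33 around Sfrp1, −0.32 around Dkk2, −0.25 around Lrp6 and −0.21 around Axin2. It was −0.16 around Wnt5a, −0.09 around Fzd2, −0.06 around Lrp5, 0.05 around Dkk3 and 0.18 around Fzd7. Of the 40 neighbours, 36 around Sfrp1 and 33 around Dkk2 were below 0, as were 27 of the 32 around Fzd1. The medians over all tested protein-coding genes of these chromosomes were also below 0. They were −0.32 for chromosome 8, −0.22 for chromosome 3 and −0.24 for chromosome 5. For the other members, the chromosome median was −0.07 for Lrp6 (chromosome 6), −0.04 for Axin2 and Fzd2 (11) and 0 for Wnt5a (14). It was −0.08 for Lrp5 (19), −0.06 for Dkk3 (7) and 0.08 for Fzd7 (1). Centring took from each member the amount by which its neighbours' median departed from the median over all tested genes (−0.05). Centred in this way, the log2 differences were −3.20 for Dkk2, −2.14 for Dkk3, −0.92 for Wnt5a and −0.76 for Lrp5. That of Fzd1 was then −0.27 and no longer passed. Lrp6 then stood at 0.41 and passed as higher, and Fzd7 at −0.43 without passing.

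**Figure D3:**
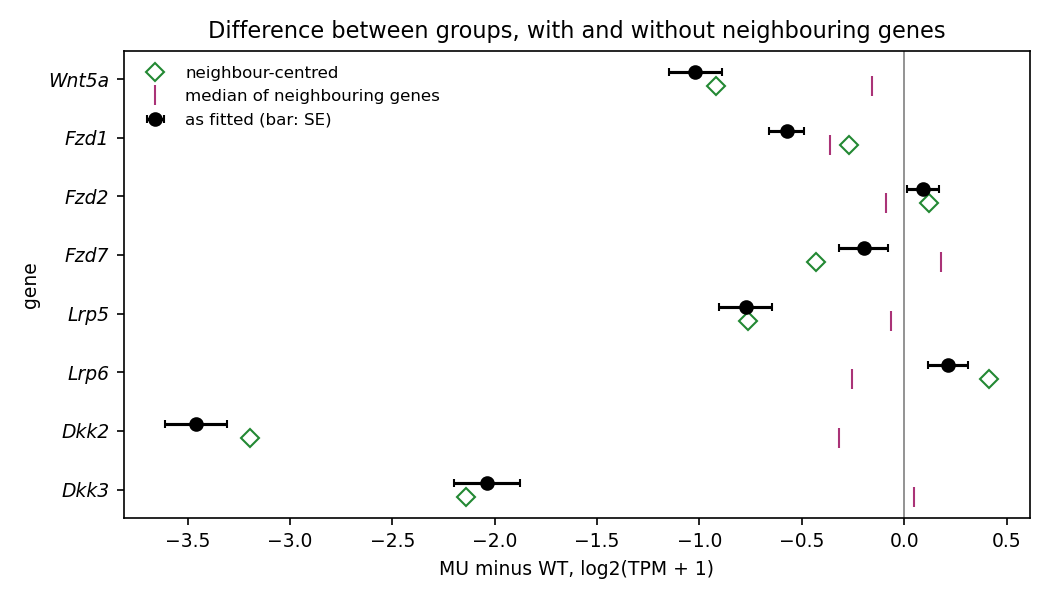
Difference between MU and WT in log2(TPM + 1) for the 8 members with a value (black, bar: SE), the median difference of neighbouring protein-coding genes (vertical mark) and the difference after centring on them (open diamond). Centring moved Fzd1 from −0.57 to −0.27 and Lrp6 from 0.21 to 0.41, and left Dkk2 at −3.20 and Dkk3 at −2.14.

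Of the 20 nearest tested protein-coding genes, 1 on each side of each member, 5 were lower, 1 was higher and 14 did not pass. No nearest gene of Fzd1, Fzd2, Fzd7, Lrp5 or Lrp6 passed. Beside Axin2, Gna13 fell from 41.8 ± 3.94 to 29.4 ± 2.64 TPM (limma adjusted p = 0.0264). Erc2, 26.2 kb from Wnt5a, fell from 7.60 ± 1.06 to 4.30 ± 0.514 TPM (SD, n = 3, limma adjusted p = 0.0226), while Selenok on the other side was at 60.4 ± 10.6 and 51.6 ± 6.33 TPM (limma adjusted p = 0.385). Papss1, 442 kb from Dkk2, fell from 140 ± 2.50 to 62.7 ± 1.06 TPM (limma adjusted p = 0.000353), while Aimp1 on the other side was at 123 ± 12.5 and 136 ± 4.36 TPM (limma adjusted p = 0.321). On the sides of Sfrp1, Golga7 fell from 80.6 ± 6.24 to 63.2 ± 2.21 TPM (limma adjusted p = 0.040) and Tcim, 988 kb away, from 13.5 ± 3.33 to 3.01 ± 0.406 TPM (limma adjusted p = 0.00195). Usp47, 4.36 kb from Dkk3, was at 68.2 ± 4.81 and 80.6 ± 2.77 TPM (limma adjusted p = 0.0999), and Mical2, 66.8 kb away on the other side, rose from 30.0 ± 2.20 to 48.7 ± 1.54 TPM (limma adjusted p = 0.00428).

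In the authors' deposited table, the same 6 genes carry the label for lower and the other 4 the label for no change. The authors' deposited table gives log2 fold changes of −5.74 for Dkk2, −5.53 for Sfrp1, −2.76 for Dkk3, −0.99 for Wnt5a, −0.75 for Lrp5 and −0.53 for Fzd1. For the others the authors' deposited table gives 0.27 for Lrp6, 0.14 for Fzd2, −0.16 for Fzd7 and −0.04 for Axin2. That table was made from the same libraries and is no independent evidence.

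The rest of the pathway was counted by role over 108 other genes, of which 59 passed the filter. These totals count each gene once, while genes such as Lef1, Znrf3 and Apcdd1 are listed under more than 1 role. Of these 59, 10 were higher and 6 lower in MU (limma adjusted p under 0.05), or 16.9% and 10.2%. Among all tested genes, 7.12% were called higher and 11.6% lower, so the lower share was close to that of all genes. The same shares stand beside the counts by role below, where each list holds few tested genes. The median log2 difference of the 59 was −0.07, beside −0.05 over all tested genes. The count of lower genes was 2 with mtDNA-encoded genes taken out of TPM, and 3 under quantile normalization or median-of-ratios scaling, while that of higher genes was 10 with each. Left out in turn, single libraries gave 2 to 10 higher and 1 to 8 lower genes, with the fewest higher (2) without MU replicate 2 and the fewest lower (1) without MU replicate 3. Higher genes also numbered 4 without MU replicate 1 or 3, and lower genes 2 without WT replicate 1, MU replicate 1 or MU replicate 2.

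Among 11 other tested receptor and turnover genes, 2 rose and 1 fell (median log2 difference −0.09). Ror1, a receptor of the tyrosine kinase family that binds Wnt5a, fell from 4.48, 3.42 and 4.63 TPM in WT to 1.31, 1.37 and 1.44 TPM in MU, a log2 difference of −1.12 (SE 0.17, limma adjusted p = 0.00663). Ryk, an atypical kinase-like Wnt receptor, rose from 113, 96.4 and 95.8 TPM to 152, 154 and 149 TPM (0.57, SE 0.09, limma adjusted p = 0.00871). Lgr4, a receptor for R-spondins, rose from 11.0 ± 2.29 to 18.5 ± 0.257 TPM (limma adjusted p = 0.0217). Ryk missed the threshold without MU replicate 2 (limma adjusted p = 0.0513), and Lgr4 without WT replicate 1 or any MU library (0.0690 to 0.0816). Fzd8, named after its values were seen, just missed the filter, at 1.30, 1.74 and 0.900 TPM in WT and 0.253, 0.174 and 0.227 TPM in MU.

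Among 4 other tested antagonists, Kremen1, a surface partner of Dkk proteins, rose from 10.7 ± 0.461 to 14.9 ± 0.276 TPM (limma adjusted p = 0.0203) and 0 fell. It missed the threshold after neighbour centring (limma adjusted p = 0.0599) and without WT replicate 1 or any MU library (0.0604 to 0.0888). Of the 7 genes for ligand release and agonists, 2 were tested and 0 passed in either direction (limma, 0 also at an unadjusted p under 0.05). Wls, which carries Wnt proteins to the cell surface, averaged 133 ± 15.7 TPM in the WT and 125 ± 4.61 TPM in the MU libraries (limma adjusted p = 0.624). All R-spondin genes stayed below 1 TPM.

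Of 18 cytoplasmic genes, 1 fell and 0 rose. It was Csnk1a1, the casein kinase that primes beta-catenin for degradation, which went from 251 ± 23.0 to 189 ± 13.2 TPM (limma adjusted p = 0.0381). That call was lost after neighbour centring (limma adjusted p = 0.230), with mtDNA-encoded genes taken out of TPM (0.0927), under quantile normalization (0.108) and without any library but WT replicate 2 (0.0699 to 0.139). Ctnnb1, which encodes beta-catenin, was named after its values were seen and was at 284, 269 and 342 TPM in the WT libraries and 277, 268 and 242 TPM in the MU ones (limma adjusted p = 0.334).

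Of 11 tested nuclear effectors, 4 rose and 1 fell (median log2 difference 0.12). The rises numbered 2 without WT replicate 3, MU replicate 1 or MU replicate 3 and 1 without MU replicate 2. Tle2 and Tle4, Groucho-type co-repressors of TCF factors, rose from 10.6 ± 1.08 to 25.5 ± 4.85 TPM (1.18, SE 0.15, limma adjusted p = 0.00445) and from 4.79 ± 0.679 to 8.94 ± 0.193 TPM (0.79, SE 0.13, limma adjusted p = 0.00935). Of the same family, Tle1 was at 45.3 ± 3.50 and 35.5 ± 2.27 TPM, lower in MU without overlap (limma adjusted p = 0.0529), and Tle3 at 32.9 ± 4.29 and 28.1 ± 1.62 TPM (limma adjusted p = 0.264), both named after their values were seen. Named to complete the count after their values were seen, Tcf7l2, a TCF factor, went from 19.1 ± 2.47 to 26.9 ± 1.62 TPM (limma adjusted p = 0.0332) and Bcl9l, a beta-catenin cofactor, from 26.3 ± 4.21 to 39.5 ± 2.34 TPM (limma adjusted p = 0.0242). Pygo2, which binds Bcl9 proteins, fell from 46.1 ± 2.34 to 37.2 ± 0.927 TPM (limma adjusted p = 0.0447). Tle4 missed the threshold without MU replicate 2 (0.0508), Tcf7l2 without WT replicate 3 or any MU library (0.0691 to 0.120), Bcl9l without WT replicate 1 or 3 or any MU library (0.0532 to 0.0935) and Pygo2 without WT replicate 1 or any MU library (0.102 to 0.154, all limma adjusted p). Pygo2 also missed it with each other scaling (limma adjusted p = 0.0908 to 0.141), after neighbour centring (0.263) and with a correction for GC content and length (0.0660).

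Known beta-catenin targets besides Axin2 did not share a direction: of 7 tested, 1 rose and 2 fell (median log2 difference −0.13). Ccn4, a matricellular protein, rose from 15.7, 15.4 and 16.1 TPM in WT to 22.5, 21.8 and 22.5 TPM in MU (0.47, SE 0.08, limma adjusted p = 0.0115). Cd44, the hyaluronan receptor, fell from 126, 108 and 125 TPM to 82.9, 83.3 and 73.7 TPM (−0.58, SE 0.10, limma adjusted p = 0.0110). Ccnd1, which encodes cyclin D1, fell from 165 ± 24.1 to 122 ± 2.90 TPM (limma adjusted p = 0.0468). Ccn4 missed the threshold without any MU library (0.0563 to 0.0610), Cd44 without MU replicate 3 (0.0512) and Ccnd1 without WT replicate 1 or any MU library (0.0932 to 0.155, all limma adjusted p). Ccnd1 also missed it with each other scaling (limma adjusted p = 0.0655 to 0.120), after neighbour centring (0.0701) and with the GC and length correction (0.0833).

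Planar cell polarity genes gave 2 rises and 1 fall among 9 tested (median log2 difference −0.08). Daam2, a formin that links Dishevelled to actin, rose from 1.54, 1.43 and 1.30 TPM to 4.65, 3.95 and 5.55 TPM (1.23, SE 0.17, limma adjusted p = 0.00505). Fuz, a polarity effector of cilia, rose from 8.21 ± 1.71 to 15.4 ± 1.63 TPM (limma adjusted p = 0.0173), and Intu, its partner, fell from 3.44 ± 0.124 to 2.08 ± 0.121 TPM (limma adjusted p = 0.0444). Fuz missed the threshold without any MU library (0.0504 to 0.0743) and Intu without any 1 of the 6 libraries (0.0707 to 0.132, both limma adjusted p). Intu also missed it with mtDNA-encoded genes taken out of TPM (limma adjusted p = 0.0649), with median-of-ratios scaling (0.0593), after neighbour centring (0.108) and with the GC and length correction (0.0670).

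**Figure D4:**
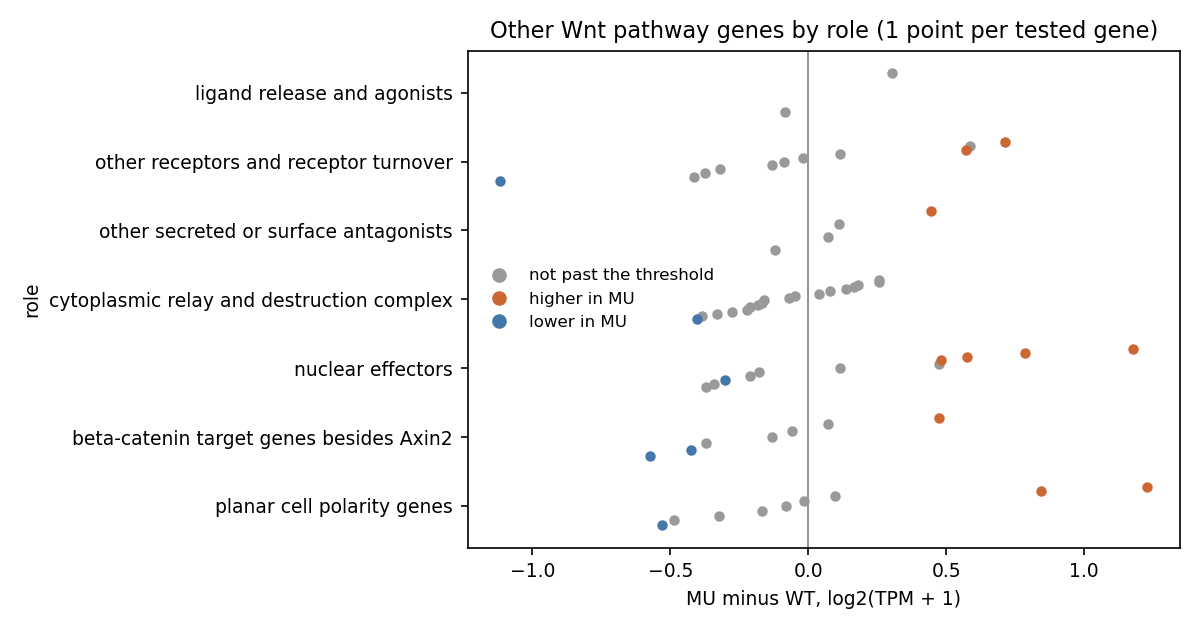
Difference between MU and WT in log2(TPM + 1) for each tested gene of 7 roles in the Wnt pathway other than the 10 genes above, with calls at a limma adjusted p under 0.05 in colour. Genes listed under several roles, such as Lef1, appear under each. Daam2 at 1.23 and Tle2 at 1.18 are the highest of the called genes and Ror1 at −1.12 the lowest.

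The genes whose profile over the 6 libraries was most like that of Dkk2, the member with the largest fall, were Fat4, Sfrp1 and Fam57a, with Pearson r of 0.9999, 0.9998 and 0.9997 among 11357 protein-coding genes. These values describe 6 points in 2 groups that share their libraries, and 162 genes had an r above 0.99. Fat4, an atypical cadherin, was at 2.73, 2.55 and 2.84 TPM across the WT libraries with 0 listed for every MU library, and Fam57a went from 24.6 to 16.0 TPM (means). For Lrp6, the member with the largest positive difference, the most similar genes were Gorab, Ppil4 and Tln1 (r of 0.998, 0.994 and 0.994), and 5 genes had an r above 0.99. Gorab was at 31.1, 26.5 and 28.9 TPM in WT and 35.5, 37.0 and 32.5 TPM in MU, with WT replicate 2 and MU replicate 3 the lowest of their groups, as for Lrp6.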

How the data were processed

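Poly(A) RNA of 3 WT and 3 MU libraries was measured with a strand-marking kit, per the labels' protocols. Named in the submitters' processing notes are DESeq2 1.20.0, HISAT2 2.05.0, FastQC 0.11.4, featureCounts 1.5.0-p3 and genome build mm10. What each did, the annotation and whether counting used strand are not stated in any source used here. The authors deposited log2(TPM + 1) values per library, written with 4 significant digits, which were returned to TPM. The authors also deposited mean TPM per group, log2 fold changes and p-values, of which only the log2 fold changes and labels of the 10 genes are quoted. TPM keeps no depth, so no counting interval is given.

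Genes with at least 1 TPM in at least 3 of 6 libraries (14209) were tested as log2(TPM + 1) with limma 3.58.1 in R 4.3.3 (intensity trend, two-sided, no covariate), with Benjamini-Hochberg adjustment over all of them and calls at an adjusted p under 0.05. The labels do not name separate cultures, so p-values measure the spread between these libraries, which may be technical. Positions, biotypes, lengths and GC content come from GENCODE M21 (GRCm38, the assembly of mm10), matched by identifier for 55141 of 55401 genes. Promoter windows come from RefSeq (GRCm38.p6).

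The members and lists were chosen with earlier results of these data known. Genes are named by rule: all members; per role, up to 2 higher and 2 lower called genes with the smallest adjusted p, or the most abundant gene where none was called; and the 3 genes most correlated with the members of largest rise and largest fall. Nearest genes on the chromosome are also given, and other genes are said to be named after their values were seen. The main fit did not pair WT and MU libraries by replicate number, and whether the numbers mark pairs is not known. Alternatives were leaving off the filter or raising it to 5 TPM, a pseudocount of 0.1 or 5, 3 other scalings (TPM without mtDNA-encoded genes, median of ratios, quantile), limma without trend or with robust estimation, a replicate block, neighbour centring, a GC and length correction (loess, span 0.3) and leaving out each library.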

Additional observations from a re-analysis of the deposited data

How the results depend on the processing

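Members were chosen on this comparison, so how their values move with the settings describes the settings and supports no member. Lrp6 passed as higher after neighbour centring and with the GC and length correction (0.25), so that 1 member was then called higher in place of 0. The members called lower numbered 5 or 6 under every alternative. All genes called higher were 1549 with the GC and length correction, in place of 1012. Leaving out single libraries gave 427 to 1153 higher and 644 to 2238 lower genes over all, 0 members higher and 5 or 6 lower, and 2 to 10 higher and 1 to 8 lower other pathway genes. Lower pathway genes numbered 3 with no filter, median-of-ratios scaling, quantile normalization or neighbour centring, and 2 after rescaling without mtDNA-encoded genes. Wls, not called, turned to 0.032 with quantile normalization and to 0.16 after neighbour centring. A TPM minimum of 5 left Ror1, Daam2 and Intu untested. Over 25 genes and their alternatives, 356 of 447 values kept direction and side of the threshold and 87 lost the call. Same-numbered libraries had deviations from their group means correlated at 0.05, 0.02 and −0.07, and WT replicate 2 went best with MU replicate 3 (0.12). Correlations this small cannot show whether the numbers mark pairs. With the replicate block, 456 genes were higher and 637 lower, 4 and 1 among other pathway genes and 0 and 5 among members, without Lrp5. Depth is unknown, so levels below 1 TPM, as for Axin2, limit what can be seen.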
